A study of Mus musculus with 5 samples.

Results

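L-Hor cells, the hormone-sensing luminal cells of the mammary epithelium, were examined by single-cell RNA sequencing (scRNAseq) of glands from ovariectomized mice under 5 treatments. They were chosen by a gate on the unique molecular identifiers (UMIs, each one counted RNA molecule) of every barcode, the droplet tag that stands for a cell. The gate asked for at least 10 UMIs of *Prlr* and *Cited1* together per 10000 UMIs, under 5 of *Csn3* and *Spp1*, under 8 of *Krt14* and *Krt17*, under 50 of *Col1a1*, *Col1a2*, *Col3a1* and *Dcn*, fewer than 2 raw UMIs over *Mki67*, *Top2a*, *Cdk1*, *Ube2c* and *Ccnb2*, and at most 10% mitochondrial UMIs. Of 14344 barcodes, 2805 met it, and the genes of the gate are not used as results.

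L-Hor cells are the luminal cells that carry the receptors for estrogen, progesterone and prolactin. They answer ovarian hormones largely by secreting factors, such as amphiregulin, Wnt4 and RANKL, that act on the neighbouring cells of the duct, while most of the division that follows takes place in cells that lack the receptors. Luminal alveolar (L-Alv) cells, the other luminal lineage, make milk proteins and carry little of these receptors.

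All mice were BALB/cj females that had lost their ovaries, were 30 weeks old at the end, and were treated for 1 week beginning 20 weeks after the operation. The 5 groups were OVX (vehicle only), OVX_E2 (17β-estradiol, E2, 1 µg per animal per day), OVX_E2_PBDE (E2 with polybrominated diphenyl ethers in the food), OVX_E2_P4 (E2 with progesterone, P4, 0.1 mg per animal per day) and OVX_E2_P4_PBDE (all of them). PBDEs are flame retardants, and the food held 7.1 mg/kg BDE-47, 0.4 mg/kg BDE-100 and 0.9 mg/kg BDE-153, whereas the other groups ate matched food with the dimethyl sulfoxide solvent alone. Hormones were injected intraperitoneally in the same solvent, and cells came from whole 4th glands without the lymph node, with dead cells removed and no sort by cell type. There was 1 library per group, so differences between treatments have no replicate check and were not tested. Bracketed ranges below are 95% intervals (exact Poisson for a sum, exact Clopper-Pearson for a share, exact conditional binomial for a ratio of sums) and cover counting error only. Values of the 5 libraries are given in the order OVX, OVX_E2, OVX_E2_PBDE, OVX_E2_P4 and OVX_E2_P4_PBDE. The sequenced libraries of the 2 PBDE groups were also numbered apart from the other 3 in the labels, so PBDE treatment and any library batch cannot be told apart.

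L-Hor barcodes made up 3.25% [2.65, 3.93] of the OVX library (101 of 3109) and 25.6% [23.8, 27.5] of OVX_E2 (572 of 2233). The shares were 18.6% [17.3, 19.9] in OVX_E2_PBDE (658 of 3536), 24.5% [23.0, 26.1] in OVX_E2_P4 (762 of 3107) and 30.2% [28.3, 32.1] in OVX_E2_P4_PBDE (712 of 2359). OVX stood far below the 4 estradiol-treated libraries, in a gland in which 2603 barcodes had the fibroblast program, against 852 to 1946 in the others. A smaller share may come from fewer L-Hor cells or from more cells of other types, and these cannot be told apart. Libraries held 20293934, 29590862, 42012988, 32648416 and 19982067 UMIs, of which 1085660, 7550542, 9218783, 7659441 and 6114948 fell in L-Hor barcodes. The median L-Hor barcode held 7128, 10382, 11081, 9102.5 and 6107 UMIs, and every level below is in CPM, UMIs per 1000000 UMIs of the summed L-Hor barcodes. A single UMI was therefore worth 0.921 CPM in OVX and 0.108 to 0.164 elsewhere, so the OVX values are the least precise. In OVX, 26 barcodes with more than 2 times the median depth held 51.7% of the UMIs, against 11.3% to 39.5% in the other libraries. Library pairs shared 3 to 15 barcode sequences and at most 1 L-Hor barcode.

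The label was checked against genes that the gate did not use, and these were high. *Ptn*, a secreted heparin-binding growth factor, stood at 8233, 5036, 3592, 4771 and 4556 CPM, against 689, 1167, 734, 999 and 1340.4 in all other barcodes. *Ly6d*, a surface protein of luminal cells, stood at 1757, 2445, 2085, 2939 and 1897 and the secreted inhibitor-like protein gene *Wfdc2* at 826, 1126, 1100.4, 1091 and 1199.7, both above the other barcodes in every library. The luminal keratin *Krt18* stood at 4202, 5935, 5407, 5166 and 4256. *Areg*, which encodes amphiregulin, was lower in OVX than in the other 4 libraries and is described with estradiol.

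**Figure D1:**
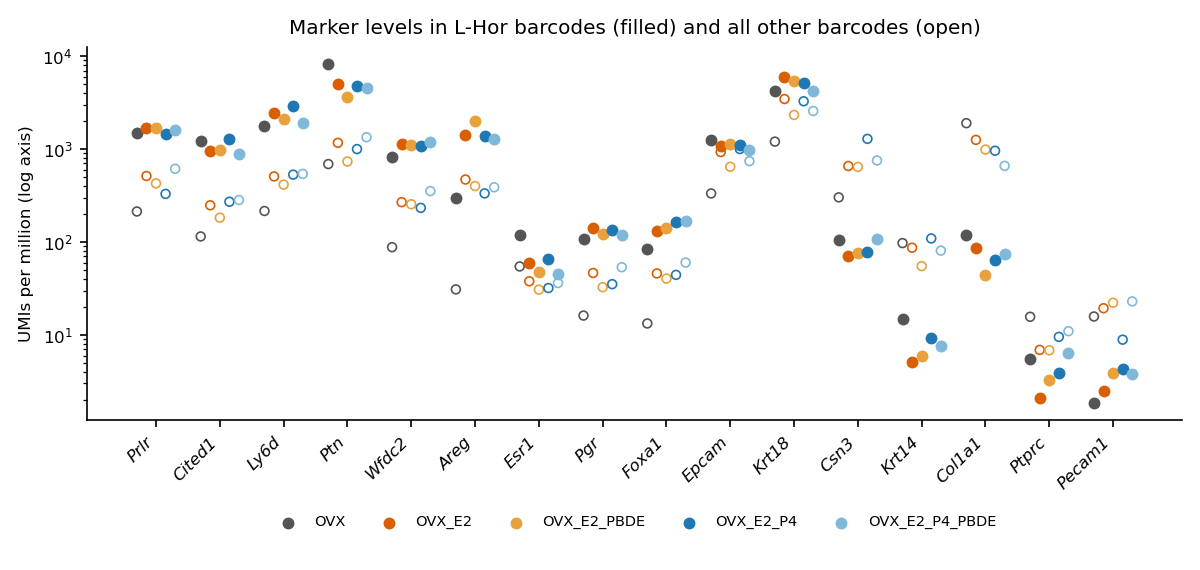
CPM (log axis) of 16 marker genes in L-Hor barcodes (filled) and in all other barcodes (open) of the 5 libraries. *Ptn* was above the other barcodes in each library, while the low levels of the casein and basal keratin genes of the gate were set by the gate itself.

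Marker genes of other cell types were also counted. The levels of 10 marker lists were summed, and the luminal list stood at 8828, 12097, 11652, 11385 and 9120.3 CPM. Fibroblast genes summed to 4067, 1835, 1870.3, 1402 and 1848 CPM in L-Hor barcodes, against 48443, 17568, 20341, 11763 and 11865 in the other barcodes. *Gsn* (2201 in OVX) or *Dcn* was their most abundant gene, and *Dcn* was limited by the gate. Hematopoietic genes summed to 568, 61.7, 97.5, 109 and 173, led in OVX by *Cd74*, the invariant chain of MHC class II, of whose UMIs 58.3% were in 1 barcode and 91.9% in 5. L-Alv genes summed to 1797, 1199, 1280.2, 1135 and 1404, led by *Trf* in OVX, and the milk protein gene *Wap* was at 0 in every L-Hor pool. Basal genes summed to 91.2, 60.9, 90, 83.0 and 91.4, endothelial genes to 23.9, 15.5, 21.9, 24.7 and 36.5, pericyte genes to 33.2, 36.2, 32.4, 31.3 and 34.7, Schwann cell genes to 20.3, 15.9, 18.5, 15.3 and 23.1 and adipocyte genes to 0.921, 0, 0.217, 0.131 and 0.164. *Notch3* made up 33.2, 35.2, 30.6, 29.8 and 32.4 of the pericyte sums and *Sox10* 16.6, 13.5, 13.8, 10.8 and 20.6 of the Schwann cell sums. Erythroid genes summed to 17.5, 39.5, 33.5, 121 and 104, with *Hba-a1* at 106 in OVX_E2_P4. In the other barcodes they summed to 329, 19.3, 25.1, 32.7 and 47.7, below L-Hor in the E2-treated libraries. The pericyte, Schwann cell and erythroid sums thus do not by themselves show RNA from those cells. OVX carried the most RNA of the fibroblast, hematopoietic and L-Alv lists. What part this RNA had in the comparisons with OVX was not tested beyond the values given for each gene.

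Beyond the gate, 15 genes had the largest mean level in L-Hor over the mean in other barcodes, each library weighted equally. *Ptn* led with a ratio of 5.31, followed by *Ly6d* (5.04), *Dnajc12* (4.76), *Cxcl17* (4.76), *Reg3g* (4.73), *Cdo1* (4.70), *Mtmr7* (4.63), *Wfdc2* (4.47), *Tspan1* (4.46), *Fam25c* (4.44), *Gipc2* (4.35), *Nrxn3* (4.29), *Stc2* (4.24), *Upk3a* (4.21) and *Cxcl15* (4.19). Without OVX the ratio of *Upk3a* was 2.35, while the other 14 stayed between 3.63 and 4.70. Among them *Reg3g* encodes a secreted antibacterial lectin, *Cxcl15* and *Cxcl17* secreted chemokines, *Stc2* a secreted glycoprotein and *Cdo1* the enzyme that oxidises cysteine. *Reg3g* stood at 109.6, 93.2, 120.2, 55.1 and 102 CPM and *Cdo1* at 543, 678, 661, 611 and 585, each far above L-Alv barcodes (102, 44.4, 24.0, 34.0 and 37.0 for *Cdo1*). Because these cells were picked on *Prlr* and *Cited1*, these ratios describe the pool and were not tested. Both luminal programs were above their limits in 663 further barcodes, which the gate leaves out.

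The receptors themselves were present in every library. *Esr1*, the estrogen receptor α gene (chr10:4611593-5005614, GRCm38), stood at 119, 58.7, 47.7, 65.5 and 45.1 CPM and was highest in OVX, 2.03 [1.65, 2.47] times lower in OVX_E2. *Pgr*, the progesterone receptor gene and a classical estrogen target, stood at 107, 141, 120.4, 133 and 119.7, and its ratio of OVX_E2 over OVX was 1.32 [1.09, 1.61], short of 2-fold. *Foxa1* and *Gata3*, luminal transcription factors, stood at 84.7, 133, 141, 165 and 168 and 189.7, 213, 204, 188 and 207, and *Tbx3* at 171, 100.3, 85.4, 115 and 77.0. Of 20 receptors and luminal factors on a list, 9 could be compared between OVX_E2 and OVX, and *Esr1* alone was past 2-fold (1 of 9, against 2.36% of all genes at least 2-fold lower). It was no longer past 2-fold when ratios were scaled to the median of the compared genes or its top barcode was left out. Of the 16 luminal keratin and junction genes, 9 could be compared and 0 were past 2-fold in any of the 5 comparisons, a count near the background of 0.101% to 2.36% of all genes in a given direction.

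The first comparison asks what 1 week of E2 did to L-Hor cells of the ovariectomized gland. *Pcp4*, *Gpx3*, *Areg* and *Cd24a* were higher, and *Upk3a*, *Myc*, *Id2* and the chaperone *Hspa5* were lower. Genes were compared with at least 50 CPM in 1 of the libraries, 50 UMIs over both and at least 0.5 times their level in the other barcodes. Of 2418 such genes, 36 (1.49%) were at least 2-fold higher and 57 (2.36%) at least 2-fold lower in OVX_E2. The median gene had a log2 ratio of -0.17, and scaling to that median gave 47 higher and 30 lower. Thus the balance of higher to lower depends on the scaling. It also moved with the gate, the depth of the barcodes and the limit on other barcodes, as given under the processing. Of the 93 genes, 50 were past 2-fold in every setting that gave them a value. In the other comparisons given below this held for 10 of 21 genes (P4), 9 of 15 (P4 with PBDEs), 6 of 13 (PBDEs) and 23 of 38 (PBDEs with P4).

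**Figure D2:**
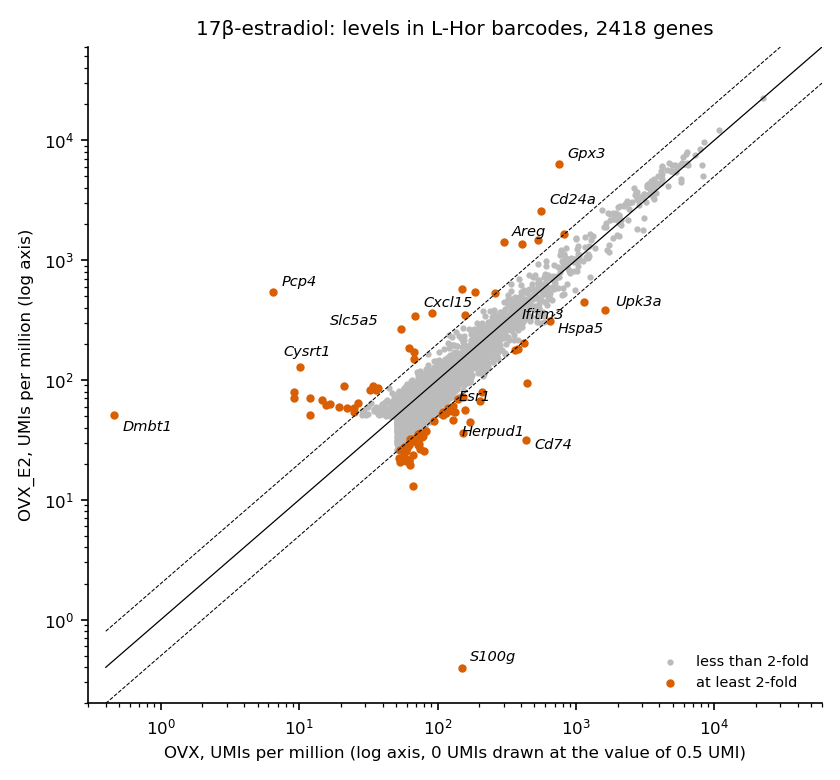
CPM in L-Hor barcodes of OVX (horizontal) and OVX_E2 (vertical), both on log axes, for the 2418 genes compared, with genes at least 2-fold apart in orange and 0 UMIs drawn at the value of 0.5 UMI. *Pcp4* and *Dmbt1* lie furthest above the diagonal, and *Upk3a* is the most abundant of the labelled genes below it.

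*Pcp4* (chr16:96467606-96525793), which encodes a small calmodulin-binding protein, stood at 6.45, 542, 71.4, 239 and 379.9 CPM. It was barely present in OVX, where 7 UMIs were counted, and 84.1 [40.8, 209] times higher in OVX_E2. *Dmbt1*, a secreted mucosal defence protein gene, had 0 UMIs in OVX and stood at 51.3 in OVX_E2, at least 18.5-fold higher over a floor of 3 counts in the OVX library, with a lower end of 15 for the exact interval of the ratio. *Cysrt1* stood at 10.1, 129, 125, 119.7 and 148, with OVX apart from all 4 estradiol-treated libraries, and was 12.8 [7.10, 25.6] times higher in OVX_E2.

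*Areg* (chr5:91139599-91148432), the gene of amphiregulin, an epidermal growth factor receptor ligand that relays the estrogen signal in ductal growth, stood at 300.3, 1408, 2001, 1375 and 1279 CPM. All 4 estradiol-treated libraries were above OVX, and the ratio of OVX_E2 over OVX was 4.69 [4.20, 5.25]. In fibroblast barcodes, which should lack it, *Areg* stood at 4.14, 30.3, 34.7, 44.2 and 37.4. Its ratio there was 7.33 [5.45, 10.00], so the same direction was read at a far lower level.

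*Gpx3* (chr11:54902453-54910377), a secreted glutathione peroxidase, stood at 751, 6292, 7079, 2289 and 4246 CPM. It was 8.38 [7.82, 8.99] times higher in OVX_E2 than in OVX, while fibroblast barcodes held it at 3445, 4569, 4664, 3404 and 4243. *Cd24a*, the gene of a small glycosylated surface protein of luminal cells, stood at 560.0, 2583, 1834, 1568 and 1112 and was 4.61 [4.25, 5.01] times higher. *Slc5a5*, the sodium-iodide symporter that carries iodide into milk, stood at 54.3, 265, 191, 136 and 144 and was 4.87 [3.76, 6.43] times higher. The chemokine *Cxcl15* stood at 69.1, 343, 339.8, 215 and 278, 4.97 [3.95, 6.34] times higher. *Dgki*, *Ggt1* and *S100a14* had ratios of 8.57 [4.63, 18], 7.72 [4.17, 16.2] and 5.93 [3.44, 11.2]. These genes have in common that all 4 estradiol-treated libraries were above OVX.

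Among the genes that were lower, *Upk3a* (chr15:85017141-85022547), which encodes a uroplakin, a membrane plaque protein best known from the bladder lining, stood at 1624, 384, 283, 496 and 170.4 CPM. OVX was above the other 4 libraries, and OVX_E2 was 4.23 [3.99, 4.49] times lower. *Myc* stood at 158, 56.6, 48.5, 59.4 and 55.8 and was 2.79 [2.32, 3.33] times lower. *Id2*, which encodes an inhibitor of helix-loop-helix transcription factors, stood at 171, 44.9, 29.6, 94.1 and 30.1 and was 3.82 [3.17, 4.58] times lower. The interferon-induced membrane protein gene *Ifitm3* was 2.59 [2.43, 2.77] times lower.

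Several of the largest differences rested on few cells. *S100g*, a calcium-binding protein gene, was 376 [126, 1840.1] times lower on 3 UMIs in OVX_E2 against 162 in OVX, of which 92.0% came from 1 barcode. *Cd74* was 13.9 [11.8, 16.3] times lower, and *Ltf*, the lactoferrin gene, 4.72 [4.20, 5.31] times lower, with 443 CPM in OVX L-Hor barcodes and 1570.0 in the OVX L-Alv barcodes. In 6 of the 93 genes at least 20% of the UMIs of the higher library lay in 1 barcode. Of the genes with at least 50 UMIs in fibroblast barcodes, 12 of 27 higher genes and 3 of 47 lower genes were past 2-fold the same way there, *Areg*, *Cd24a*, *Fxyd2* and *Pcp4* among the 12.

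Of 25 estrogen response genes on a list, 12 could be compared. *Areg* and *Pcp4* were at least 2-fold higher and *Myc* was at least 2-fold lower (2 and 1 of 12, against 1.49% and 2.36% of all genes). Of the 12, 9 had a log2 ratio above 0, with a median of 0.30 against -0.17 for all genes. At least 50 CPM was reached by 11 list genes in OVX and 13 in OVX_E2. Some of the 12, *Pcp4* among them, were therefore compared through OVX_E2 alone and could only lie above 0. The 9 and the median are thus partly set by the minimum level. *Greb1*, a classical estrogen target, was near 0 in L-Hor barcodes, at 0, 2.65, 0.325, 4.31 and 0.491 CPM. *Ccnd1*, the cyclin D1 gene, stood at 135, 250.4, 154, 171 and 194, short of 2-fold, and of 26 genes for D cyclins, CDK inhibitors and S phase 7 could be compared, with only *Myc* past 2-fold (1 of 7, against 2.36% of all genes at least 2-fold lower).

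L-Hor barcodes were not uniform. Thinned to 3000 UMIs each, their genes had a median ratio of variance to mean of 1.07 over 1072 genes, and the 10 largest were *Malat1* (22.7), *Tmsb4x* (21.4), *Pcp4* (18.1), *Mt1* (16.6), *Mt2* (13.3), *Actb* (11.1), *Gpx3* (11.1), *Upk3a* (8.71), *Fxyd2* (8.65) and *Areg* (8.23). *Fxyd2* (chr9:45399669-45410278), the γ subunit of the sodium-potassium pump, stood at 261, 531, 360.5, 463 and 801 CPM. At equal depth, *Upk3a* was counted in 75.2%, 24.0%, 29.3%, 34.6% and 14.5% of L-Hor barcodes and *Areg* in 25.7%, 71.5%, 75.8%, 69.7% and 68.5%. *Pcp4* was counted in 1.98%, 23.4%, 5.47%, 16% and 26.0% and *Fxyd2* in 28.7%, 35.8%, 23.4%, 34.0% and 45.4%. Unthinned, the shares were 84.2%, 44.8%, 48.3%, 51.8% and 25% for *Upk3a* and 40.6%, 87.4%, 90.6%, 84.1% and 81.0% for *Areg*, 5.94%, 37.6%, 11.1%, 27.8% and 35.8% for *Pcp4* and 38.6%, 50.9%, 37.4%, 47.6% and 55.5% for *Fxyd2*. Fibroblast barcodes were taken as the background, since they should lack these RNAs. With median depths of 5214, 6656, 7045.5, 5621.5 and 4290.5 UMIs, they gave thinned shares of 2.96%, 3.85%, 1.28%, 4.65% and 2.23% for *Upk3a* and 1.08%, 5.67%, 8.84%, 11.8% and 11.2% for *Areg*. The corresponding shares were 0.0384%, 1.93%, 0.565%, 2.27% and 2.35% for *Pcp4* and 0.692%, 2.57%, 2.72%, 5.10% and 7.51% for *Fxyd2*. In OVX, *Upk3a* was thus counted in most L-Hor barcodes and *Pcp4* in almost none.

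*Upk3a* and *Fxyd2* tended to be counted in different L-Hor barcodes of the same library. This pair, and the others given here, were chosen from 17 after their values were seen and are a description. In OVX, *Fxyd2* was counted in 18.4% [10.5, 29.0] of the 76 barcodes with a *Upk3a* UMI and in 60.0% [38.7, 78.9] of the 25 without. In OVX_E2 it was counted in 19.7% [13.4, 27.4] of the 137 barcodes with a *Upk3a* UMI and in 40.9% [36.3, 45.7] of the 435 without. The shares with and without *Upk3a* were 6.74% and 30.3% in OVX_E2_PBDE, 23.9% and 39.4% in OVX_E2_P4, and 16.5% and 50.2% in OVX_E2_P4_PBDE. The direction was the same in all 5 libraries, and before thinning the barcodes with *Upk3a* were the deeper ones in each.

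*Pcp4* and *Fxyd2* went the other way. In OVX_E2, *Fxyd2* was counted in 62.7% [53.9, 70.9] of the 134 barcodes with a *Pcp4* UMI and in 27.6% [23.5, 32.1] of the 438 without. The same was read in OVX_E2_PBDE (55.6% against 21.5%), OVX_E2_P4 (43.4% against 32.2%) and OVX_E2_P4_PBDE (71.9% against 36.1%), although the intervals overlapped in OVX_E2_P4, and OVX had 2 barcodes with *Pcp4*. *Upk3a* was counted more often in barcodes with *Areg* than in those without it, in 27.6% against 14.7% in OVX_E2 and 17.8% against 7.14% in OVX_E2_P4_PBDE. The shares were closer, with overlapping intervals, in OVX (80.8% and 73.3%), OVX_E2_PBDE (31.5% and 22.6%) and OVX_E2_P4 (36.3% and 30.7%). Although *Upk3a* was lower and *Areg* higher in OVX_E2 than in OVX, the barcodes with one did not lack the other.

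**Figure D3:**
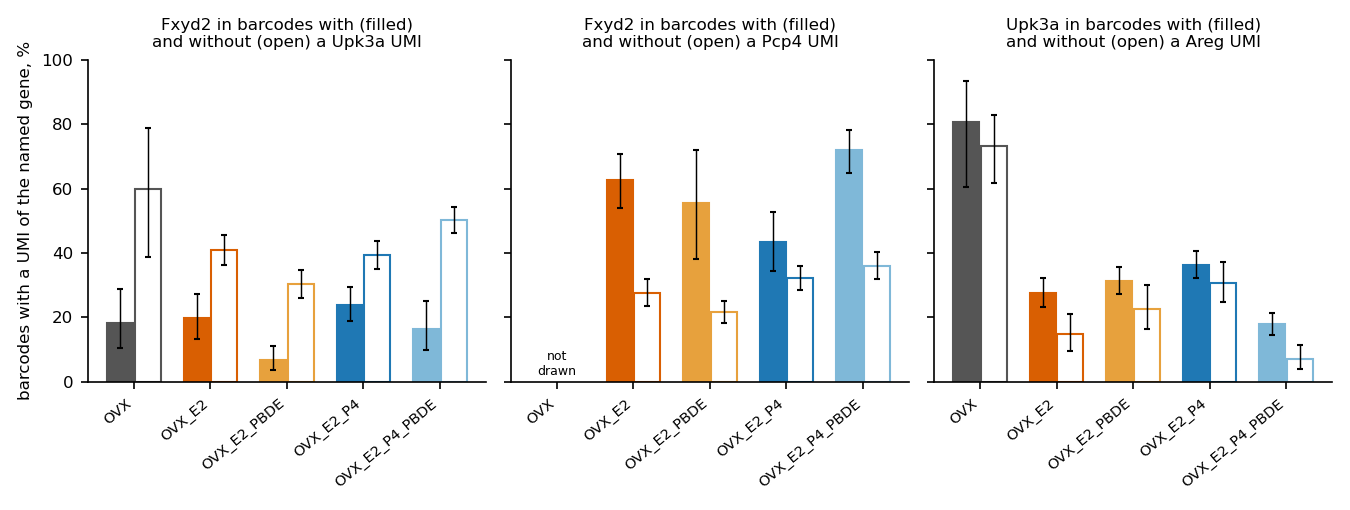
Share of L-Hor barcodes (percent, thinned to 3000 UMIs, bars are 95% Clopper-Pearson intervals) with a UMI of the second gene, among barcodes with (filled) and without (open) the first, in the 5 libraries. *Fxyd2* is less often counted where *Upk3a* is and more often where *Pcp4* is; OVX is not drawn for *Pcp4*, which 2 of its barcodes held.

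Progesterone was compared at a fixed E2 treatment, without PBDEs (OVX_E2_P4 against OVX_E2) and with them (OVX_E2_P4_PBDE against OVX_E2_PBDE), and these pairs share no library. Without PBDEs, the keratin *Krt4*, the membrane protein gene *Herpud1* and the ligands *Wnt4* and *Vegfa* were higher, and *Gpx3*, *Angptl4* and *Pcp4* were lower. Of 2160 genes, 15 (0.694%) were at least 2-fold higher and 6 (0.278%) at least 2-fold lower. With PBDEs, 13 of 1971 (0.66%) were higher and 2 (0.101%) lower. Of the 1914 genes compared in both pairs, 3 were higher and 6 lower without PBDEs and 8 higher and 1 lower with them, and 0 were past 2-fold the same way in both, which with so few genes says little. *Pcp4* was past it in opposite ways, 2.27 [2.14, 2.39] times lower without PBDEs and 5.32 [4.88, 5.81] times higher with them, and the difference between the pairs was not tested.

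*Krt4* (chr15:101918535-101924735), a keratin of stratified epithelia, stood at 59.9, 27.0, 20.4, 85.8 and 15 CPM. OVX_E2_P4 was the highest library, OVX the next, and the ratio over OVX_E2 was 3.17 [2.71, 3.73]. *Cdc42ep4*, an effector of the small GTPase Cdc42 that acts on actin, stood at 100.4, 57.9, 48.3, 130.4 and 32.9 and was 2.25 [2.01, 2.53] times higher, while its ratio was 1.12 [0.821, 1.56] in L-Alv and 1.25 [0.937, 1.67] in fibroblast barcodes. In these cells *Krt4* itself stood at 7.84 CPM with P4 against 2.05 without it (L-Alv) and 4.98 against 0.901 (fibroblast), the same direction at a far lower level. The lipoxygenase gene *Alox15* stood at 9.21, 24.9, 22.6, 61.5 and 20.9, 2.47 [2.08, 2.94] times higher in OVX_E2_P4 than in OVX_E2, with 6.21 against 3.42 CPM in L-Alv and 2.68 against 0.901 in fibroblast barcodes. For each of these genes OVX_E2_P4 was the highest of the 5 libraries and OVX_E2_P4_PBDE stood below OVX_E2.

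*Wnt4* (chr4:137277489-137299726), the secreted ligand through which progesterone acts on neighbouring cells and their branching, stood at 56.2, 37.7, 57.3, 83.0 and 76.0 CPM. It was 2.20 [1.91, 2.54] times higher with P4 in the absence of PBDEs and 1.33 [1.17, 1.51] times in their presence, the latter short of 2-fold. *Vegfa*, the angiogenic growth factor gene, stood at 24.9, 27.4, 21.8, 55.0 and 20.8, 2.00 [1.69, 2.38] times higher in OVX_E2_P4, and was not past 2-fold without its top barcode. *Tnfsf11*, which encodes RANKL, was counted with 5 UMIs in OVX_E2 and at most 1 in each other library, at 0, 0.662, 0.108, 0.131 and 0.164 CPM, so no response of RANKL could be read at this depth. Of 22 progesterone response genes, 6 could be compared without PBDEs and 4 with them. *Wnt4* in the pair without PBDEs was the single one past 2-fold (1 of 6, against 0.694% of all genes). It reached 50 CPM only in OVX_E2_P4 of that pair and could only be higher there.

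Other genes were lower with progesterone. *Gpx3* was 2.75 [2.70, 2.80] times lower in OVX_E2_P4 than in OVX_E2, and its ratio was 0.479 [0.438, 0.525] in L-Alv and 0.745 [0.731, 0.759] in fibroblast barcodes. *Angptl4* (chr17:33773750-33781830), a secreted inhibitor of lipoprotein lipase, stood at 41.4, 64.9, 68.4, 20.0 and 70.5 CPM, lowest in OVX_E2_P4 and 3.25 [2.70, 3.92] times below OVX_E2. Fibroblast barcodes held more of it in both, at 53.0 CPM in OVX_E2_P4 and 84.2 in OVX_E2. The hemoglobin gene *Hba-a1* was 3.37 [2.91, 3.91] times higher and stood at 7.37, 31.4, 25.2, 106 and 48.4, against 62.0, 5.25, 2.90, 6.89 and 12.1 in fibroblast barcodes, and it was counted in 40.9% of the OVX_E2_P4 L-Hor barcodes. *Jchain*, an immunoglobulin chain of plasma cells, was 13.7 [10.7, 17.8] times higher, with 92.1% of its 945 UMIs in 1 barcode. With PBDEs, *Pcp4*, *Dmbt1* and *Fxyd2* were 5.32 [4.88, 5.81], 3.95 [3.38, 4.62] and 2.22 [2.13, 2.32] times higher in OVX_E2_P4_PBDE than in OVX_E2_PBDE. Of the 12 higher genes with 50 UMIs in fibroblast barcodes, 9 were past 2-fold the same way there, among them *Pcp4* and *Fxyd2* (9.61 CPM in OVX_E2_PBDE and 25.8 in OVX_E2_P4_PBDE fibroblast barcodes for *Fxyd2*) and the noncoding transcripts *Tsix*, *Gm26917* and *Gm42418*. *Tsix* lies antisense to *Xist*, and overlapping transcripts may share reads.

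**Figure D4:**
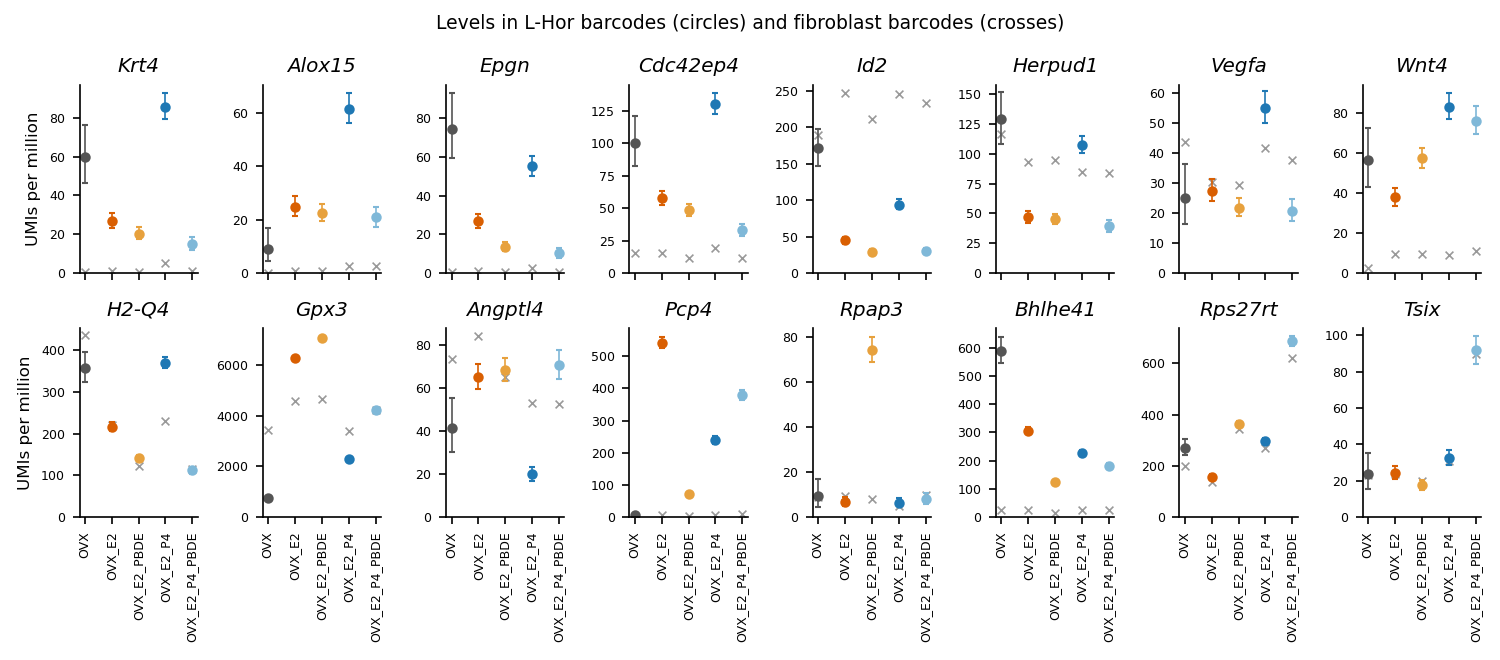
CPM of 16 genes in L-Hor barcodes (circles, with 95% Poisson intervals) and in fibroblast barcodes (crosses) of the 5 libraries. *Krt4*, *Alox15* and *Cdc42ep4* are highest in OVX_E2_P4, *Rpap3* stands out in OVX_E2_PBDE, and *Tsix* and *Rps27rt* differ alike in both kinds of barcode.

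PBDEs were compared with E2 alone (OVX_E2_PBDE against OVX_E2) and with E2 and P4 (OVX_E2_P4_PBDE against OVX_E2_P4), again with no library in common. With E2 alone few genes differed, among them *Rpap3*, which was higher, and *Bhlhe41*, *Per3* and *Dbp*, which were lower. With E2 and P4, *Krt4*, *Epgn*, *Cdc42ep4*, *Upk3a* and the MHC class I genes *H2-Q4*, *H2-Q6* and *H2-Q7* were lower. Of 2103 genes, 4 (0.19%) were higher and 9 (0.428%) lower in the former, where the median log2 ratio was -0.13 and scaling to it gave 8 and 4. Of 2068 genes, 9 (0.435%) were higher and 29 (1.4%) lower in the latter.

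*Rpap3* (chr15:97675097-97705825), a co-chaperone of RNA polymerase assembly, stood at 9.21, 6.75, 74.3, 6.40 and 8.01 CPM. OVX_E2_PBDE stood alone, 11.0 [8.27, 14.9] times above OVX_E2, and its 685 UMIs were spread over 266 barcodes. The ratio was 0.833 [0.607, 1.15] in fibroblast barcodes of the same libraries. In L-Alv barcodes *Rpap3* stood at 11.8 CPM in OVX_E2_PBDE against 5.47 in OVX_E2, and in all barcodes outside L-Hor at 18.1 against 8.98. Both went the same way as L-Hor, at a lower level. *Bhlhe41*, a repressor in the circadian clock, stood at 590.4, 306, 123, 226 and 182, *Per3* at 68.2, 56.4, 19.4, 39.6 and 37.0 and *Dbp* at 134, 80.7, 31.5, 58.5 and 46.0. They were 2.49 [2.32, 2.68], 2.91 [2.43, 3.48] and 2.56 [2.23, 2.96] times lower, and the ratios in fibroblast barcodes were 0.6 [0.484, 0.744], 0.502 [0.42, 0.6] and 0.729 [0.673, 0.79], in the same direction. *Pcp4* was 7.60 [7.0, 8.26] times lower with PBDEs under E2 alone, and also past 2-fold lower in fibroblast barcodes, at 1.66 CPM against 7.51.

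In the presence of P4, *Krt4* was 5.70 [4.58, 7.17] times, *Epgn*, an epidermal growth factor receptor ligand, 5.35 [4.10, 7.08] times and *Cdc42ep4* 3.97 [3.41, 4.64] times lower with PBDEs. *Epgn* stood at 74.6, 26.8, 13.7, 55.1 and 10.3 CPM, and 40.7% of its OVX UMIs were in 1 barcode, without which it was short of 2-fold for E2. *Id2* was 3.13 [2.66, 3.70] times, *Alox15* 2.94 [2.41, 3.6] times and *Upk3a* 2.91 [2.72, 3.12] times lower. The ratio of *Upk3a* was 0.408 [0.239, 0.658] in L-Alv and 0.43 [0.275, 0.654] in fibroblast barcodes, in the same direction. *Vegfa* was 2.65 [2.17, 3.25] times lower, and *Angptl4* 3.53 [2.93, 4.27] times higher. OVX_E2_P4 is the reference of this comparison and the treated library of the one before, so the opposite order of *Krt4*, *Alox15*, *Cdc42ep4*, *Vegfa* and *Angptl4* rests on the same library. The nonclassical MHC class I genes *H2-Q4*, *H2-Q6* and *H2-Q7* were 3.32 [3.05, 3.61], 2.83 [2.57, 3.12] and 2.60 [2.31, 2.93] times lower. *H2-Q4* stood at 358, 217, 141, 370.4 and 112 in L-Hor and 436, 219.8, 122, 231 and 115 in fibroblast barcodes, and reads of these near-identical genes may be split uncertainly.

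Among the 1954 genes compared in both PBDE pairs, 3 were at least 2-fold higher in the first and 5 in the second, and 2 in both (66.7% and 40% of them), whereas 0 were lower in both. They were *Rps27rt* and *Gm10263*, near-copies of ribosomal protein genes, whose reads cannot be placed with certainty. *Rps27rt* stood at 271, 157, 363, 297 and 687 CPM in L-Hor and 199, 135, 344, 269 and 621 in fibroblast barcodes. Both kinds of barcode were higher with PBDEs. Of 21 targets of AhR, CAR and PXR, the receptors through which many foreign compounds induce metabolic enzymes, 1 could be compared in each PBDE pair and was short of 2-fold. *Cyp1a1*, the usual AhR reporter, was at 0 UMIs in all 5 L-Hor pools, which allows up to 2.76 CPM in OVX, and *Cyp1b1* stood at 4.61, 1.32, 0.759, 2.61 and 1.47.

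Genes of the unfolded protein response, the program by which a cell adds chaperones and folding enzymes to the endoplasmic reticulum (ER), differed in summed level between the libraries. Summed over the 20 genes of the list, their level was 2816, 1866, 1975, 2319 and 1648 CPM. OVX was highest, OVX_E2_P4 next and OVX_E2_P4_PBDE lowest. In all other barcodes the sum was 3606, 2403, 2567, 2483 and 2199.9, also highest in OVX and lowest in OVX_E2_P4_PBDE. The immediate early and stress list, genes that tissue dissociation is known to induce, summed to 13786, 11209, 10914, 11319 and 9904 in L-Hor and 21126, 13350, 12454, 11396 and 11777 in other barcodes. Its median log2 ratios were -0.28 for E2, 0.12 for P4, -0.16 for P4 with PBDEs, 0.06 for PBDEs and -0.23 for PBDEs with P4, on the same side of the median of all genes as those of the unfolded protein response list in each comparison, and its part in these differences was not tested. *Hspa5*, the main ER chaperone BiP, stood at 647, 313, 349.6, 519 and 256 and *Herpud1*, a membrane protein of ER-associated degradation, at 129, 46.8, 45.2, 108 and 39.6. *Hsp90b1*, the ER form of Hsp90, stood at 268, 157, 165, 193 and 146 and *Dnajc3*, a BiP cofactor, at 146, 96.5, 97.0, 109 and 80.0.

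Of the list, 7 genes share a promoter element that XBP1 and ATF6 are known to use, the ER stress response element, written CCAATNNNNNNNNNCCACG or, on the other strand, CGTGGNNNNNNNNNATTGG. It was searched on both strands in the 250 bases before each RefSeq start (GRCm38.p6), where 0.113% of 32851 promoters held it, against 7 of the 19 list genes that had a promoter (*Calr*, *Canx*, *Creld2*, *Dnajc3*, *Hsp90b1*, *Hspa5* and *Pdia6*). Of the 41 genes lower with E2 that had a promoter, *Hspa5* was the 1 that held it, and no match was found for *Herpud1* or *Pdia4*. A match of letters is a description and binding was not measured. The promoters of 3 of them are shown 5′ to 3′ with the matches in capitals, for the chaperones whose levels are given above, at chr2:34771840-34772089 (plus strand) for *Hspa5*, chr10:86705445-86705694 (minus strand) for *Hsp90b1* and chr14:118937682-118937931 (plus strand) for *Dnajc3*. The match starts 65 bases before the start of *Hspa5*, 212 and 107 bases before that of *Hsp90b1* and 105 bases before that of *Dnajc3*.
Hspa5 promoter: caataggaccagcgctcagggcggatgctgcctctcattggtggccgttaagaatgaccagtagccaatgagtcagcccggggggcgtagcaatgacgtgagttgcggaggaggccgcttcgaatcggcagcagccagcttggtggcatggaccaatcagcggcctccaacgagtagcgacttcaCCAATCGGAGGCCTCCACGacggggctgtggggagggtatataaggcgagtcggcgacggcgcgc
Hsp90b1 promoter: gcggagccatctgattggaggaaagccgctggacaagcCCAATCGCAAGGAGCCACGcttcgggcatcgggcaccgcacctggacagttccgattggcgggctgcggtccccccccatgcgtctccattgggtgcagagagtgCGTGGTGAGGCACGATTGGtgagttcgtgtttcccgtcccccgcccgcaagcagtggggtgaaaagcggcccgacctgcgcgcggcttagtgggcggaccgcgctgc
Dnajc3 promoter: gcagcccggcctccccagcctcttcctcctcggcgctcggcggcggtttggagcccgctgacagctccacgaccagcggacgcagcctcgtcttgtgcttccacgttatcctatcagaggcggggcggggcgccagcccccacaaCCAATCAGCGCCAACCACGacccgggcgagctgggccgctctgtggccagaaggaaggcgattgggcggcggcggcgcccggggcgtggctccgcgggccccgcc

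In OVX_E2 against OVX, 14 of the 20 could be compared, 0 had a log2 ratio above 0, and *Herpud1*, *Hspa5* and *Pdia4*, a disulfide isomerase, were at least 2-fold lower (3 of 14, against 2.36% of all genes). The list median was -0.53, against -0.17 for all genes. At least 50 CPM was reached by 15 list genes in OVX and 12 in OVX_E2. Some of the 14 were therefore compared through OVX alone and could only lie below 0. *Herpud1* was 2.76 [2.25, 3.36] times and *Hspa5* 2.07 [1.90, 2.25] times lower, and *Hspa5* was short of 2-fold under the median scaling. In OVX_E2_P4 against OVX_E2, 12 of 15 were above 0 with a median of 0.18 against -0.08 for all genes. Only 12 list genes reached 50 CPM in OVX_E2, against 15 in OVX_E2_P4. Some of the 15 were therefore compared through OVX_E2_P4 alone and could only lie above 0. *Herpud1* was 2.30 [2.03, 2.61] times higher, the 1 of 15 past 2-fold (all genes, 0.694%). *Hspa5* was 1.66 [1.58, 1.75] times higher, short of 2-fold. In OVX_E2_P4_PBDE against OVX_E2_P4, 0 of 15 were above 0 and the median was -0.33 against -0.08 for all genes. In OVX_E2_P4_PBDE 11 list genes reached 50 CPM. Some of these 15 were therefore compared through OVX_E2_P4 alone and could only lie below 0. *Herpud1* and *Hspa5* were 2.72 [2.35, 3.15] and 2.03 [1.91, 2.15] times lower (2 of 15 past 2-fold, against 1.4% of all genes), the latter short of 2-fold under median scaling.

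In the other P4 pair the list lay on the opposite side. In OVX_E2_P4_PBDE against OVX_E2_PBDE 0 of 12 were above 0, with a median of -0.29 against -0.03 for all genes and 0 past 2-fold. In OVX_E2_PBDE against OVX_E2 9 of 12 were above 0, with a median of 0.09 against -0.13 for all genes and 0 past 2-fold. The list median thus lay above that of all genes with P4 alone and with PBDEs alone, and below it where the other treatment was already present. The genes behind these medians differ between comparisons, and some were compared only because they were high in 1 library. The sums over the whole list, which need no minimum level, were higher with P4 alone and with PBDEs alone. They were lower where the other treatment was present. In all other barcodes the sum moved the same way in each of these 4 pairs, so this order was not particular to L-Hor barcodes. With P4 alone the sum went from 2403 to 2483 CPM there, against 1866 to 2319 in L-Hor. With PBDEs alone it went from 2403 to 2567 there, against 1866 to 1975 in L-Hor. In fibroblast barcodes the ratio of *Hspa5* was 0.625 [0.597, 0.653] for E2, the same direction as in L-Hor, and 0.898 [0.844, 0.955] for P4 without PBDEs, the opposite one. In L-Alv barcodes the latter was 1.3 [1.19, 1.42]. The 4 pairs with E2 in both libraries are made from 4 libraries, so they are not independent of one another.

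**Figure D5:**
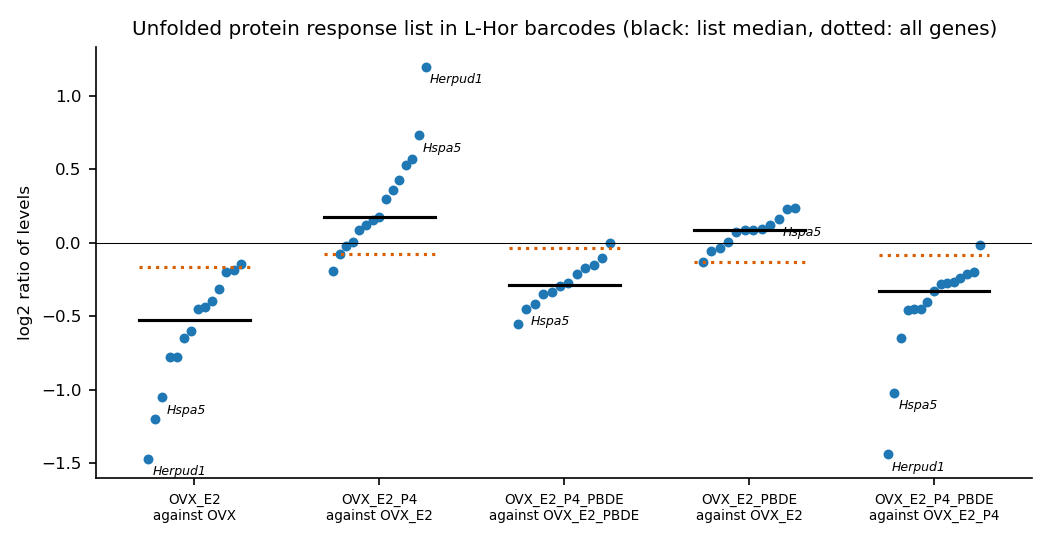
Log2 ratio in L-Hor barcodes of each gene of the unfolded protein response list that could be compared, in the 5 comparisons, with the list median (black) and the median of all genes compared (dotted). The list median lies below the dotted line for E2, P4 with PBDEs and PBDEs with P4, and above it for P4 without PBDEs and PBDEs without P4.

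*Pcp4* had the largest ratio, after adding 1 UMI, among the genes higher with E2, and opposite directions in the P4 pairs. Its promoter is therefore shown too, at chr16:96467356-96467605 (plus strand). It holds 2 copies of the core of the estrogen response element, GGTCA or on the other strand TGACC, starting 164 and 139 bases before the RefSeq start and given in capitals.
Pcp4 promoter: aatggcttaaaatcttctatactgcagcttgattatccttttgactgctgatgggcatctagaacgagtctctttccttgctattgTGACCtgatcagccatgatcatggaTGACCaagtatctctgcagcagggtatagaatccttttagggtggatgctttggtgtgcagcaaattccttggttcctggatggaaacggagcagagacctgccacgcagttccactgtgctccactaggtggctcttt
The core is short and common, in 35.2% of all 32851 promoters of this length and, per gene, in 38.4% of 27025 genes. It was found for 9 of the 20 genes higher in OVX_E2 that had a promoter (45%) and 20 of the 41 lower ones (48.8%). The full palindrome, GGTCA and TGACC with 3 bases between them, was in 0.0639% of promoters and in 0 of either set.

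The remaining lists had few or no genes past 2-fold. Of all genes, 0.101% to 2.36% were past it in a given direction, so a count of 0 among a few genes is near that background. A gene that reached 50 CPM in only 1 library of a pair could only be higher there. This held for *Wnt4*, *Vegfa* and *Epgn* for P4 without PBDEs, and for *Vegfa* and *Epgn* for PBDEs with P4. For E2 it held for *Epgn*, *Cxcl16*, *Cp*, *Dmbt1*, *Scd2* and *Crym*. *Dmbt1* was so placed in each pair named below. Their counts below are a description. Ribosomal protein genes, 84 in all, summed to 290849, 330706, 358889, 347970 and 367866 CPM, lowest in OVX, with 80 compared and 0 past 2-fold in any pair. Of 79 genes of oxidative phosphorylation, 70 were compared between OVX_E2 and OVX, with 0 past 2-fold. Of 28 immediate early and stress genes 16 to 23 were compared and 0 were past 2-fold in any pair. Of 15 genes of prolactin receptor and JAK-STAT5 signalling 3 or 4 were compared, with 0 past 2-fold. Of 22 interferon response and MHC class I genes on a list that does not hold the *H2-Q* genes, *Ifitm3* in OVX_E2 against OVX was the single one past 2-fold (1 of 8, against 2.36% of all genes). Of 15 genes of the epidermal growth factor receptor family, 4 were compared for E2, with *Areg* higher and *Epgn* lower (all genes, 1.49% and 2.36%). *Epgn* was higher with P4 (1 of 4, against 0.694% of all genes) and lower with PBDEs in the presence of P4 (1 of 4, against 1.4%). Of 33 paracrine ligands, 7 were compared for E2, with *Areg* higher and *Cxcl16* lower (all genes, 1.49% and 2.36%). *Cxcl16*, with a log2 ratio of -1.14, was short of 2-fold under median scaling. For P4, 6 were compared, with *Wnt4* and *Vegfa* higher (all genes, 0.694%), and for PBDEs with P4 6 were compared, with *Vegfa* lower (all genes, 1.4%). Of 22 genes of innate defence, 11 were compared for E2, with *Dmbt1* and *Gpx3* higher and *Cd14*, *Cp* and *Ltf* lower (all genes, 1.49% and 2.36%). In OVX, 1 barcode held 26.7% of the *Cd14* UMIs and 1 barcode 41.8% of the *Ltf* UMIs. *Cd14* is also on the L-Alv marker list, whose sum was highest in OVX. *Gpx3* was lower with P4 (1 of 8, against 0.278% of all genes). *Dmbt1* was higher with P4 in the presence of PBDEs (1 of 9, against 0.66%) and lower with PBDEs under E2 alone (1 of 9, against 0.428%). The latter, with a log2 ratio of -1.07, was short of 2-fold under median scaling. *Scd2* of the lipid list and *Crym* of the steroid list were also past 2-fold with E2 (1 of 3 and 1 of 2 compared, against 1.49% of all genes), at 19.3, 59.6, 49.5, 45.8 and 42.5 and 36.8, 85.8, 88.2, 84.7 and 72.9 CPM. No gene of the cholesterol synthesis (21 genes) or insulin-like growth factor (13 genes) lists reached the 50 CPM and the share of other barcodes that a comparison required, and the 1 Notch gene compared was short of 2-fold.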

How the data were processed

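Whole 4th mammary glands of 5 groups were dissociated and profiled by droplet scRNAseq (10x Chromium 3′ chemistry), 1 library each. The authors aligned reads to mm10 and counted UMIs with Cell Ranger 2.0.0, and the deposited values are raw counts of 27998 genes per barcode, filtered to cell barcodes and not normalized. The members and gene lists (19 gene lists, 10 marker lists) were chosen with earlier results of these data known.

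Counts of the gated barcodes were summed per library and scaled to CPM, UMIs per 1000000 UMIs of the pool. A gene was compared between 2 libraries when it reached 50 CPM in 1 of them, 50 UMIs over both, and at least 0.5 times its level in the other barcodes of the library where it was higher. Gate and mitochondrial genes were left out. One call rule was used, a ratio of at least 2-fold after adding 1 UMI, which is a size and not a test. Symbols shared by 2 identifiers numbered 65. L-Alv and fibroblast barcodes were set by the same kind of gate. Shares of barcodes were computed after thinning each to 3000 UMIs. No doublet caller was run; the gate leaves out barcodes with a second program, and those left out for *Csn3* and *Spp1* had median depths of 23942, 25032, 25707, 18166.5 and 14609 UMIs. The scripts were tested on simulated counts (Python 3.11.15, numpy 2.4.6, scipy 1.17.1, pandas 2.3.3). Depth set a floor of 3 counts for a gene at 0.

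Genes named are the markers of the cell type, in each comparison the 12 furthest up and the 12 furthest down by ratio, list genes past 2-fold or needed to say what a list did not do, genes past 2-fold in both progesterone or both PBDE comparisons, the 15 most enriched genes with at least 50 CPM in every library, the 10 most variable genes with a mean of at least 0.3 UMI per thinned barcode in at least 3 libraries, and gate genes. Others were chosen after their values were seen. Alternatives changed the gate, depth, minimum level and scaling; those that leave out the top barcode or top 1% of barcodes per gene, or genes that differ alike in fibroblasts, were chosen after seeing the data. Sequences and positions are from RefSeq (GRCm38.p6) and GENCODE (GRCm38). The gate's *Prlr* and *Cited1* value ran from 10.0 per 10000 just inside to 9.98, 9.97, 10.0, 9.94 and 9.90 just outside, and 5, 19, 23, 28 and 33 members lay between 10 and 12.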

Additional observations from a re-analysis of the deposited data

Results flagged for a closer look

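*Pcp4*, the calmodulin-binding protein gene, differed in opposite directions in the progesterone pairs. Its level in OVX_E2_P4 was 0.441 [0.418, 0.467] times that in OVX_E2, whereas in OVX_E2_P4_PBDE it was 5.32 [4.88, 5.81] times that in OVX_E2_PBDE. OVX_E2_PBDE had the lowest level of the 4 estradiol-treated libraries, at 71.4 CPM, and OVX_E2 the highest, at 542. With 1 library in each group, the difference between the pairs was not tested.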

How the results depend on the processing

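No paired analysis was possible because each group has 1 library, so no replicate could be left out either. With 1 library per group, the limits are the missing spread between animals and, for OVX, 101 barcodes. The share of L-Hor barcodes became 2.25%, 17.9%, 12.8%, 16.5% and 20.5% with a *Prlr* and *Cited1* minimum of 20, and 6.72%, 33.4%, 25.7%, 31.4% and 40.6% with no limit on *Csn3* and *Spp1*. With at most 5% mitochondrial UMIs it was 22.1% in OVX_E2_P4, and a gate on *Ly6d*, *Ptn*, *Wfdc2* and *Areg* gave 26.2% in OVX_E2_P4 and 32.4% in OVX_E2_P4_PBDE. OVX was the lowest of the 5 in the first and the second of these settings.

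Counts of genes past 2-fold are given as higher and lower. For E2 (36 and 57) a minimum of 20 CPM gave 65 and 247, a minimum of 100 gave 18 and 25, and subtracting the fibroblast level gave 169 and 658. After that subtraction 456 genes for E2 and 503 to 538 in the other comparisons were at 0 in both libraries and have no value, and a gene at 0 in 1 library was set to the level of 1 UMI, so these counts also reflect the depth of the pools. The lower count was 36 with no limit on *Csn3* and *Spp1*, 140 in barcodes with at most 2 times the median depth, 30 under median scaling and 103 with no limit on other barcodes. For P4 (15 and 6) 20 CPM gave 27 higher, 100 gave 8 and 3, and fibroblast subtraction 157 and 214. For P4 with PBDEs (13 and 2) these settings gave 24 and 6, 6 and 0, and 127 and 165; a limit of 1 times the other barcodes gave 5 higher, a *Prlr* and *Cited1* minimum of 20 gave 5 lower, and leaving out genes that differ alike in fibroblasts gave 4 higher. For PBDEs (4 and 9) they gave 22 lower, 1 and 5, and 109 and 204; median scaling gave 8 and 4, no limit on other barcodes 10 higher, and the fibroblast exclusion 2 higher. For PBDEs with P4 (9 and 29) they gave 19 and 50, 3 and 18, and 165 and 293; no limit on other barcodes gave 20 higher and the fibroblast exclusion 5 higher.

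Of the gene ratios under all alternatives, 2406 stayed within their counting interval, 366 moved out of it and 9 reversed. Subtracting the fibroblast level reversed the log2 ratio of *Gm17056* (3.35) for P4, *Gm2000* (-1.31), *Gm11175* (-3.29), *Gm42418* (-7.32) and *AY036118* (-3.96) for P4 with PBDEs, *Rps27rt* (-0.22) for PBDEs, and *Gm11175* (-4.21) for PBDEs with P4. *Jchain* reversed for PBDEs with P4 without its top barcode (1.21) or top 1% (1.29), since 1 barcode held most of its UMIs. The cause of the other changes was not tested.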

Other observations

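*Nppc*, which encodes C-type natriuretic peptide, was counted in 67 of the 762 L-Hor barcodes of OVX_E2_P4 with 350 UMIs, a level of 45.7 CPM, against 3.68 in OVX, 1.85 in OVX_E2, 4.23 in OVX_E2_PBDE and 1.31 in OVX_E2_P4_PBDE. It was below the minimum of 50 CPM, was chosen after its values were seen, and has no replicate.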
